A study of Mus musculus with 8 samples.

Results

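Fatty acid oxidation was described through 45 genes of the mouse liver, chosen as a list of enzymes, carriers and transporters of mitochondrial and peroxisomal oxidation out of 35275 gene identifiers in the deposited table. All 45 were found by symbol and all 45 had a mean of at least 0.5 FPKM (fragments per kilobase of transcript, scaled to library size), the level above which 13573 genes were tested. They were sorted by role into activation (4 genes), mitochondrial (19), ketogenic (2), peroxisomal (8), thioesterase (6) and Cyp4a (4) branches and 2 other genes. RNA came from 8 livers, 4 labelled Triple LKO and 4 labelled WT, with 2 females (numbered 1 and 2) and 2 males (numbered 3 and 4) of each genotype. LKO stands for a liver-specific knockout, here of Zfp36 (tristetraprolin), Zfp36l1 and Zfp36l2, a family of RNA-binding proteins that recognise AU-rich elements and hasten mRNA decay. The study was about liver cancer after loss of these proteins. No other allele or agent is named, and the labels give neither the Cre driver, the strain, the age, nor whether tissue was taken from a tumour. They also do not state that the 8 samples were 8 animals, so the p-values speak only of how these samples vary.

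Fatty acids are joined to coenzyme A at the endoplasmic reticulum and outer mitochondrial membrane, cross into mitochondria as acylcarnitines and are shortened by repeated rounds of dehydrogenation, hydration, oxidation and thiolysis, with acetyl-CoA feeding ketone body synthesis in liver. Very-long-chain and dicarboxylic acids are instead shortened in peroxisomes, and the dicarboxylic acids arise by omega-hydroxylation through Cyp4a enzymes of the endoplasmic reticulum. Many of these genes are textbook targets of the fasting-responsive nuclear receptor PPAR alpha, which binds DNA with the retinoid X receptor.

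Depth was 15.1 to 18.8 M fragments per library, and 40 of the 45 members had at least 129 fragments in every liver. The fewest were 4 for Cyp4a32, 28 for Acot1, 30 for Acot3, 41 for Cyp4a31 and 44 for Acot2. The targeted genes were read first, in the order female 1, female 2, male 3 and male 4, which is kept for every set of 4 values given here. Zfp36 had 11.6, 17.4, 4.51 and 3.66 FPKM in LKO-labelled livers, against 41.0, 29.5, 61.4 and 46.3 FPKM in WT livers. Zfp36l1 had 4.67, 8.63, 0.499 and 0.695 FPKM in LKO-labelled livers, against 10.6, 16.4, 12.8 and 21.9 FPKM in WT livers. Zfp36l2 had 18.1, 33.0, 4.34 and 3.86 FPKM in LKO-labelled livers, against 11.8, 14.9, 14.4 and 17.2 FPKM in WT livers, so in both LKO-labelled females this gene was above the WT females and against the label. Gm42418, a predicted locus lying over ribosomal RNA, held 0.0423% of the fragments of LKO-labelled female 1 and 0.0602% of those of WT male 4, and 3.19% to 4.34% in the other 6 libraries. Transcripts of the mitochondrial genome took 2.80% to 10.4% of fragments in LKO-labelled livers and 6.53% to 7.76% in WT livers, with the lowest shares in the LKO-labelled females.

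Most of the oxidation genes had lower values in LKO-labelled livers, and the branch medians of the log2 change ran from −2.39 for Cyp4a, −1.07 for the thioesterases and −0.999 for activation to −0.60 for the ketogenic pair and −0.55 for both the mitochondrial and the peroxisomal genes. In a limma-trend fit on log2(FPKM + 1) with genotype and sex, adjusted over all 13573 tested genes by the Benjamini-Hochberg method, 17 of 45 members (37.8%) were lower at an adjusted p under 0.05, against 5.74% of all tested genes. Another 3 members (6.67%) were higher, against 24.7% of all tested genes, and 25 did not pass. The median log2 change of the 45 members was −0.61 and 36 lay below 0, beside a median of 0.39 and 25.48% below 0 over all tested genes. On this scale the change of genes with low FPKM is understated, and in bulk RNA fewer hepatocytes and less of an RNA per hepatocyte cannot be told apart. Each library was also rescaled by its median ratio to the geometric mean over LKO-labelled and WT livers together (median-of-ratios scaling). The median of all tested genes then moved to 0.06, that of the members to −1.03, and 28 members were lower and 1 higher. Over all tested genes that rescaling turned 3353 higher and 779 lower calls into 1433 higher and 1458 lower, and quantile normalization into 1045 higher and 1376 lower. Leaving out single livers left 9 lower members without WT female 1, 10 without WT female 2, and 11 each without WT male 3 or LKO-labelled male 4. Over all tested genes the 779 lower calls became 487, 453, 537 and 571 in the same order.

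**Figure D1:**
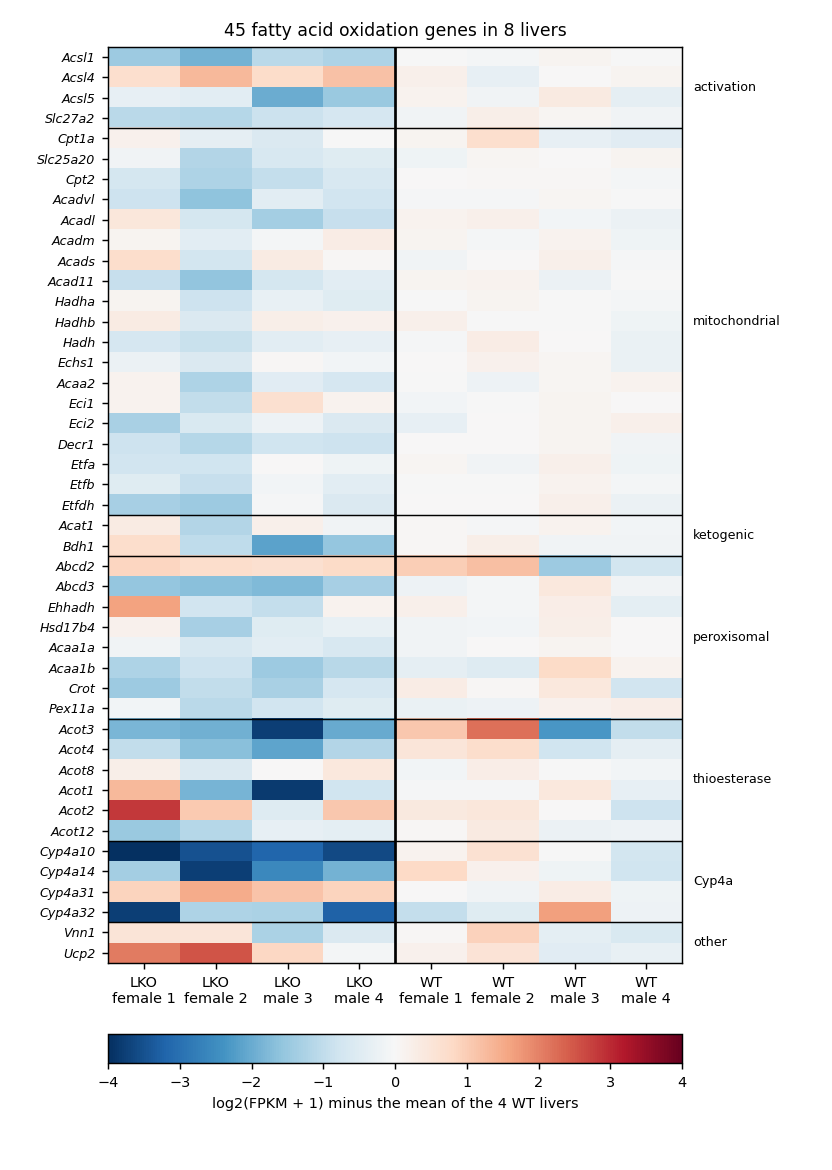
Log2(FPKM + 1) of the 45 members (rows, by branch) in each liver (columns, the 4 LKO-labelled livers left of the 4 WT livers) after subtracting the mean of the 4 WT livers; blue is lower and red higher. LKO-labelled female 2 was below all 4 WT livers for 37 members and LKO-labelled female 1 for 20.

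The livers did not overlap for 18 members. All 4 LKO-labelled livers lay below all 4 WT livers for 16 of 45 members (35.6%), against 5.72% of all tested genes, and above them for 2 (4.44%), against 25.6%. Of the 17 members called lower, 12 had no overlap, while Acsl5, Eci2, Etfdh, Crot and Acot3 overlapped in at least 1 liver. Hadh, Etfb, Acaa1a and Acot12 lay below WT in all 4 livers without passing the test.

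Summed over all 45 members, the level was 3982, 2393, 3103 and 3212 FPKM in LKO-labelled livers, against 5112, 5122, 5576 and 4465 FPKM in WT livers, so no LKO-labelled liver reached the lowest WT liver. The Cyp4a branch summed to 86.6 ± 31.0 FPKM in LKO-labelled livers and 548 ± 187 FPKM in WT livers (SD, n = 4 each), or 15.8% of WT. Activation summed to 295 ± 15.1 FPKM in LKO-labelled livers and 573 ± 48.9 FPKM in WT livers, or 51.5%. The thioesterases summed to 79.4 ± 40.7 FPKM in LKO-labelled livers and 144 ± 62.8 FPKM in WT livers, or 55.2%. The peroxisomal branch summed to 696 ± 188 FPKM in LKO-labelled livers and 1208 ± 299 FPKM in WT livers, or 57.6%. The mitochondrial branch kept 76.2%, with 1788 ± 385 FPKM in LKO-labelled livers and 2347 ± 86.8 FPKM in WT livers, and the ketogenic pair 83.3%, with 174 ± 82.1 FPKM in LKO-labelled livers and 209 ± 12.4 FPKM in WT livers. Relative to the mitochondrial sum of the same liver, the Cyp4a sum was 5.83%, 3.96%, 3.96% and 5.25% in LKO-labelled livers, against 31.1%, 27.6%, 20.8% and 13.6% in WT livers. The groups did not overlap in the Cyp4a, activation, mitochondrial or peroxisomal sums, and the ketogenic sum of LKO-labelled female 1 (288.6 FPKM) was above every WT liver.

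**Figure D2:**
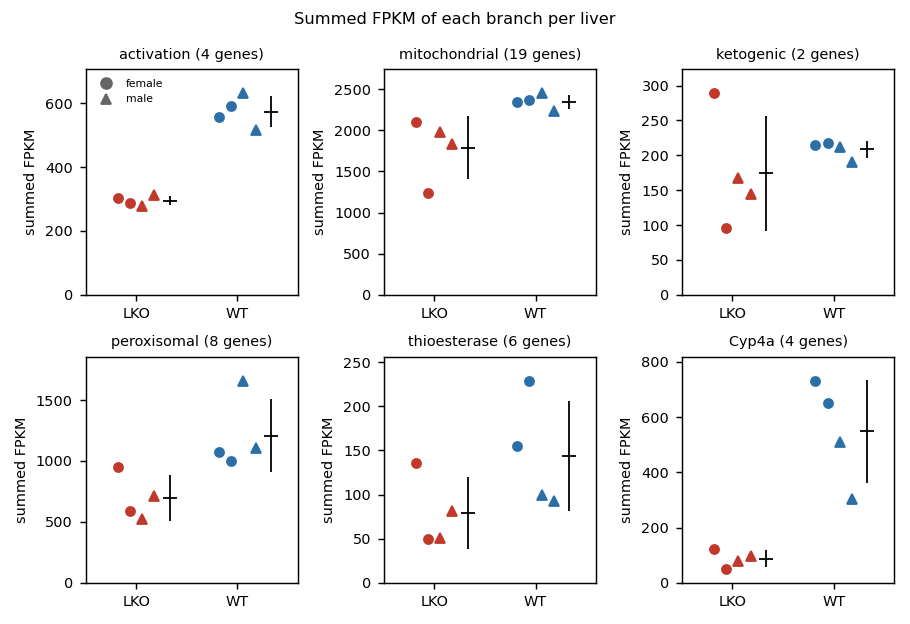
Summed FPKM of each branch (y axis, from 0) for the 4 LKO-labelled livers (red, left) and the 4 WT livers (blue, right); circles are females, triangles males, and black bars the mean and SD. The Cyp4a sum stayed at 48.9 to 122.7 FPKM in LKO-labelled livers, below the lowest WT liver at 303 FPKM.

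**Figure D3:**
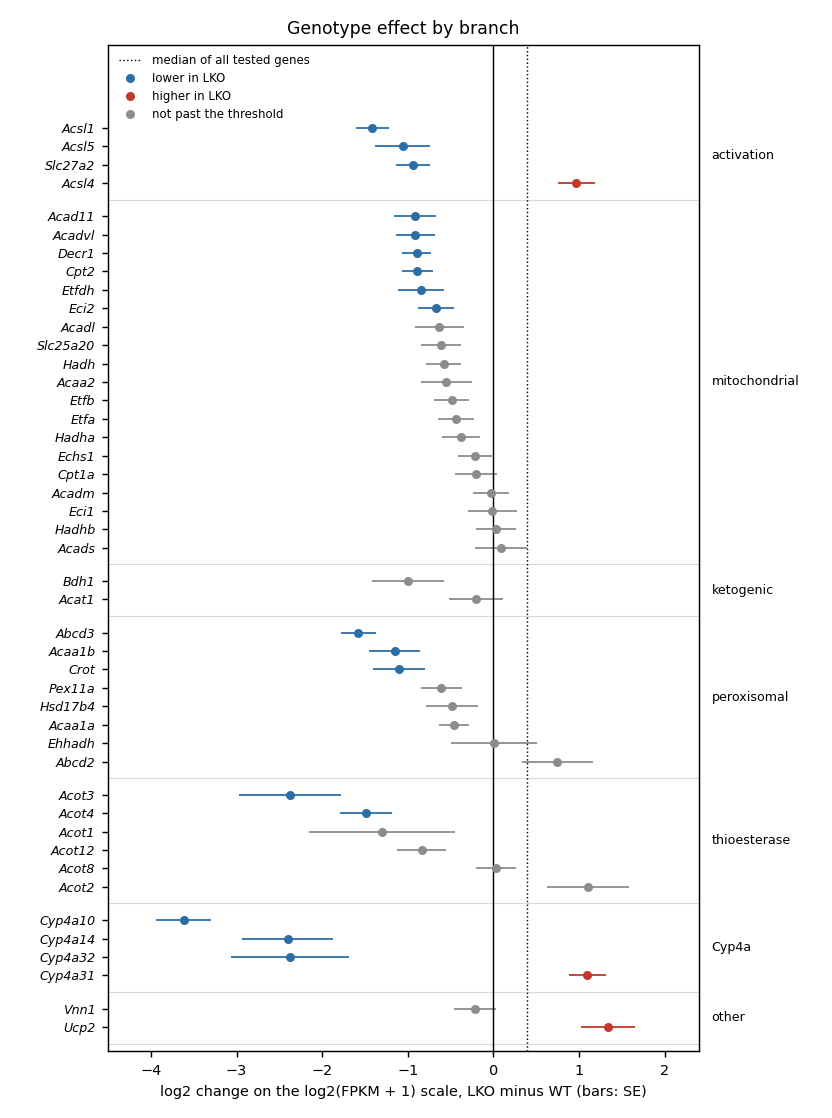
Log2 change on the log2(FPKM + 1) scale, LKO-labelled minus WT, with its SE (x axis) for each member by branch; blue points were lower, red points higher and grey points not past an adjusted p of 0.05. The dotted line marks the median of all tested genes, 0.39.

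The promoter windows of the members were searched for the direct repeat that PPAR alpha and the retinoid X receptor bind, AGGTCANAGGTCA, 13 bases on either strand, in RefSeq windows (GRCm38.p6) of 250 bases before to 50 after each start site. A window was at hand for 36 of the 45 members. Cyp4a10, Cyp4a14, Cyp4a31, Hsd17b4, Decr1, Vnn1, Acat1, Abcd2 and Acaa2 had none and were not searched. None of the 36 members held an exact copy, which 0.0481% of 27025 genes did. With up to 1 mismatch it was found in 1 of 36 members (2.78%) and 0.644% of all genes, and with up to 2 mismatches in 5 of 36 (13.9%) and 4.40%. These 5 were Acot12 with 1 mismatch and Acot4, Echs1, Etfa and Slc25a20 with 2, of which the match in Slc25a20 lay after the start site. The other 4 are printed because they are the members whose window before the start site holds the nearest copies. Each is given 5′ to 3′ on the strand of the gene. Capitals mark the 13 bases aligned to the repeat, mismatched bases included.
Acot12, chr13:91741391-91741443, plus strand: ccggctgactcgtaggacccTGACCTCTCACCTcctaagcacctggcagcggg
Acot4, chr12:84038346-84038378, plus strand: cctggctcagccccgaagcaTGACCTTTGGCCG
Echs1, chr7:140116472-140116524, minus strand: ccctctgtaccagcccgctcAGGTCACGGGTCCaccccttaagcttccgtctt
Etfa, chr9:55512288-55512340, minus strand: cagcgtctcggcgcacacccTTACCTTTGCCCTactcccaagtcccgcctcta
The repeat stood in the direction of the gene in Echs1 and in the opposite direction in Acot12, Acot4 and Etfa. Of these, Acot4 was called lower and Acot12, Echs1 and Etfa were not. A match describes letters in the window and shows no binding.

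Of the 4 activation genes 3 were lower and 1 was higher, beside 5.74% lower and 24.7% higher among all tested genes. Acsl1, the main long-chain acyl-CoA synthetase of liver (chromosome 8, 46471037 to 46536051, GRCm38), had 64.8, 46.6, 83.5 and 74.6 FPKM in LKO-labelled livers, against 176, 169, 192 and 174 FPKM in WT livers. Every LKO-labelled liver held less than the lowest WT liver, and the mean was 37.9% of WT (log2 −1.42 ± 0.19 SE, limma adjusted p = 0.00252). Slc27a2, a very-long-chain acyl-CoA synthetase and fatty acid transporter, had 122, 118, 143 and 164 FPKM in LKO-labelled livers, against 234, 305, 275 and 234 FPKM in WT livers. The groups were again apart (log2 −0.94 ± 0.20 SE, limma adjusted p = 0.0112). Acsl5, a synthetase of mitochondria and endoplasmic reticulum, had 93.7, 87.3, 28.8 and 41.0 FPKM in LKO-labelled livers, against 131, 106, 150.0 and 92.0 FPKM in WT livers. The LKO-labelled males were lowest, and the LKO-labelled females lay close to WT male 4 (log2 −1.06 ± 0.32 SE, limma adjusted p = 0.0374). Acsl4, which prefers arachidonate and is low in hepatocytes, went the other way with 22.5, 35.3, 23.4 and 31.9 FPKM in LKO-labelled livers, against 15.9, 10.7, 14.0 and 14.8 FPKM in WT livers. All 4 LKO-labelled livers were above all WT livers (log2 0.97 ± 0.21 SE, limma adjusted p = 0.0139), but the call was lost under the median-of-ratios scaling and quantile normalization, at adjusted p of at most 0.101.

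The mitochondrial branch had 6 of 19 members lower and 13 that did not pass, with a median log2 change of −0.55 and a range of −0.91 to 0.09. Among all tested genes 5.74% were lower and the median log2 change was 0.39. Cpt2, which turns acylcarnitines back into acyl-CoA on the matrix side, had 38.1, 26.5, 31.9 and 39.7 FPKM in LKO-labelled livers, against 63.2, 64.8, 64.6 and 59.7 FPKM in WT livers (log2 −0.89 ± 0.18 SE, limma adjusted p = 0.0104). Decr1, the dienoyl-CoA reductase needed for polyunsaturated chains, had 35.3, 27.7, 36.0 and 35.0 FPKM in LKO-labelled livers, against 63.1, 63.6, 68.7 and 57.0 FPKM in WT livers (log2 −0.90 ± 0.17 SE, limma adjusted p = 0.00733). Both were lower in every LKO-labelled liver than in any WT liver, and both were called under all 18 alternatives tried. Acadvl, the very-long-chain acyl-CoA dehydrogenase that opens the spiral, had 43.2, 24.9, 58.4 and 44.99 FPKM in LKO-labelled livers, against 76.2, 75.9, 83.1 and 77.1 FPKM in WT livers (log2 −0.91 ± 0.23 SE, limma adjusted p = 0.0214). Acad11, another acyl-CoA dehydrogenase, had 33.0, 20.7, 38.6 and 47.0 FPKM in LKO-labelled livers, against 68.3, 70.1, 54.4 and 63.8 FPKM in WT livers (log2 −0.91 ± 0.25 SE, limma adjusted p = 0.0267). In these dehydrogenases too the groups were apart, with the lowest values in LKO-labelled female 2.

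Etfdh, which passes electrons from the dehydrogenases to ubiquinone, had 27.3, 25.3, 68.5 and 46.3 FPKM in LKO-labelled livers, against 70.3, 71.8, 81.4 and 59.3 FPKM in WT livers. The LKO-labelled females were low and LKO-labelled male 3 lay within the WT range (log2 −0.85 ± 0.27 SE, limma adjusted p = 0.0439). Eci2, an enoyl-CoA isomerase for unsaturated chains, had 30.4, 50.3, 66.4 and 51.2 FPKM in LKO-labelled livers, against 61.0, 77.3, 81.9 and 89.2 FPKM in WT livers (log2 −0.67 ± 0.21 SE, limma adjusted p = 0.0452), and LKO-labelled male 3 again overlapped. Eci2 is also peroxisomal and was counted here with the mitochondrial genes. The calls of Etfdh and Eci2 held under 8 and 7 of the 18 alternatives. Acaa2, the matrix thiolase and the most abundant member of the branch by FPKM, had 545, 210.1, 358 and 311 FPKM in LKO-labelled livers, against 489.6, 428, 516 and 545 FPKM in WT livers, with LKO-labelled female 1 at the top of the WT range and the other 3 LKO-labelled livers below it (log2 −0.55 ± 0.30 SE, limma adjusted p = 0.181). Etfb, the electron transfer flavoprotein beta subunit and second in FPKM, had 194, 142, 255 and 204 FPKM in LKO-labelled livers, against 268, 273, 298 and 256 FPKM in WT livers and no overlap (log2 −0.49 ± 0.21 SE, limma adjusted p = 0.0984); 67.3% of the 50-base words of its longest transcript also occur in Gm45233, so reads could be split between them.

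The other 11 mitochondrial members did not pass the test. Cpt1a, the rate-controlling carnitine palmitoyltransferase of the outer membrane, averaged 86.4 ± 20.5 FPKM in LKO-labelled livers and 102 ± 39.0 FPKM in WT livers (SD over 4 livers each; log2 −0.20 ± 0.25 SE, limma adjusted p = 0.544). Its inner-membrane partner Slc25a20, the carnitine-acylcarnitine carrier, averaged 37.2 ± 10.8 FPKM in LKO-labelled livers and 55.8 ± 4.37 FPKM in WT livers (log2 −0.61 ± 0.23 SE, limma adjusted p = 0.0745). The straight-chain dehydrogenases Acadl, Acadm and Acads had log2 changes of −0.63, −0.02 and 0.09, the trifunctional protein subunits Hadha and Hadhb −0.37 and 0.03, the 3-hydroxyacyl-CoA dehydrogenase Hadh −0.58, the hydratase Echs1 −0.22, the isomerase Eci1 −0.02, and the flavoprotein alpha subunit Etfa −0.44. Acads and Hadhb turned negative under the median-of-ratios scaling, at −0.34 and −0.39. Acadm was 99.6% of WT on average, at 184 ± 37.8 FPKM in LKO-labelled livers and 185 ± 18.5 FPKM in WT livers, while its longer-chain relatives Acadvl and Acadl were 54.9% and 71.9% of WT.

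Of 24 further mitochondrial oxidation genes tested outside the 45 members, 7 were lower and 2 higher, beside 5.74% and 24.7% of all tested genes. The smallest p belonged to Acsm1, a medium-chain acyl-CoA synthetase, at 47.7, 35.8, 26.4 and 43.0 FPKM in LKO-labelled livers, against 173, 208, 183 and 174 FPKM in WT livers (log2 −2.27 ± 0.21 SE, limma adjusted p = 0.000734). Acacb, the carboxylase that makes the malonyl-CoA restraining Cpt1a, had 3.42, 5.82, 3.15 and 1.57 FPKM in LKO-labelled livers, against 18.4, 27.0, 19.1 and 11.2 FPKM in WT livers (log2 −2.17 ± 0.27 SE, limma adjusted p = 0.00172). Acadsb, the dehydrogenase of short branched chains, was also lower (log2 −1.28 ± 0.16 SE, limma adjusted p = 0.00183), and the thioesterase Acot9 was higher (log2 1.79 ± 0.25 SE, limma adjusted p = 0.00298).

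Neither ketogenic member passed the limma test, with unadjusted p of 0.0416 for Bdh1 and 0.546 for Acat1. Bdh1, which interconverts acetoacetate and 3-hydroxybutyrate, had 125, 37.8, 16.8 and 25.5 FPKM in LKO-labelled livers, against 79.8, 91.4, 69.0 and 69.6 FPKM in WT livers. LKO-labelled female 1 was above every WT liver and the other 3 LKO-labelled livers below every WT liver (log2 −0.999 ± 0.42 SE, limma adjusted p = 0.0959), and it was called lower under 4 of the 18 alternatives. Acat1, the mitochondrial acetoacetyl-CoA thiolase, had 163, 57.8, 151 and 119 FPKM in LKO-labelled livers, against 135, 126, 143 and 121 FPKM in WT livers (log2 −0.20 ± 0.32 SE, limma adjusted p = 0.643). Its lowest value was in LKO-labelled female 2 and its highest in LKO-labelled female 1. Among 7 tested ketone body genes outside the members, 1 was lower and 3 were higher, beside 5.74% and 24.7% of all tested genes. Bdh2, a cytosolic hydroxybutyrate dehydrogenase, was lower (log2 −1.22 ± 0.21 SE, limma adjusted p = 0.00620), while the monocarboxylate carriers Slc16a1 (log2 1.15 ± 0.22 SE, limma adjusted p = 0.00830) and Slc16a6 (log2 1.04 ± 0.28 SE, limma adjusted p = 0.0272) were higher. Oxct1, the ketone-using transferase that adult hepatocytes barely express, was higher at 8.33, 11.6, 1.43 and 1.86 FPKM in LKO-labelled livers, against 1.64, 1.80, 1.05 and 1.29 FPKM in WT livers (log2 1.14 ± 0.34 SE, limma adjusted p = 0.0375), with the highest values in the LKO-labelled females.

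In peroxisomes a membrane transporter, a thiolase and a carnitine acyltransferase were lower, and the bifunctional enzymes did not pass. Of 8 members 3 were lower and 5 did not pass, with a median log2 change of −0.55, beside 5.74% lower and a median of 0.39 among all tested genes. Abcd3, the half-transporter that brings acyl-CoA and dicarboxylic acids into the peroxisome (chromosome 3, 121758774 to 121815302, GRCm38), had 49.8, 45.01, 42.7 and 58.1 FPKM in LKO-labelled livers, against 127, 139, 197 and 133 FPKM in WT livers. All 4 LKO-labelled livers were far below the lowest WT liver, with a mean at 32.8% of WT (log2 −1.58 ± 0.20 SE, limma adjusted p = 0.00195), and the call held under all 18 alternatives. Acaa1b, a peroxisomal thiolase, had 201, 265, 172 and 219.5 FPKM in LKO-labelled livers, against 366, 329, 801 and 519.7 FPKM in WT livers (log2 −1.15 ± 0.30 SE, limma adjusted p = 0.0225). The groups were apart, with the widest gap in males, where the WT livers were highest. Since 46.2% of its 50-base words are shared, mostly with Acaa1a, its split from that copy is uncertain. Acaa1a itself had lower values in all 4 LKO-labelled livers without passing (log2 −0.46 ± 0.18 SE, limma adjusted p = 0.0805). Crot, which makes medium-chain acylcarnitines for export from the peroxisome, had 61.1, 84.6, 68.1 and 106 FPKM in LKO-labelled livers, against 209, 173, 227 and 100.1 FPKM in WT livers (log2 −1.11 ± 0.31 SE, limma adjusted p = 0.0286), and LKO-labelled male 4 overlapped WT male 4.

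Ehhadh, the L-bifunctional enzyme and a strong PPAR alpha target, had 370.0, 70.7, 62.2 and 135 FPKM in LKO-labelled livers, against 138, 116, 146 and 92.2 FPKM in WT livers. LKO-labelled female 1 held more than any WT liver and the 2 lowest values were also LKO-labelled, so the mean change was near 0 (log2 0.01 ± 0.50 SE, limma adjusted p = 0.992). Without LKO-labelled female 1 its log2 change was −0.54, and it was −0.43 under the median-of-ratios scaling. Hsd17b4, the D-bifunctional enzyme, averaged 113 ± 44.7 FPKM in LKO-labelled livers and 149 ± 18.0 FPKM in WT livers (SD over 4 livers each; log2 −0.49 ± 0.30 SE, limma adjusted p = 0.236). Pex11a, which drives peroxisome division, averaged 28.9 ± 8.61 FPKM in LKO-labelled livers and 43.8 ± 8.14 FPKM in WT livers (log2 −0.61 ± 0.24 SE, limma adjusted p = 0.0820).

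Of 21 further tested genes of peroxisomal oxidation, 10 were lower and 2 higher, beside 5.74% lower and 24.7% higher among all tested genes. Nudt7, which cleaves peroxisomal coenzyme A, was lower at 11.6, 8.87, 7.74 and 7.27 FPKM in LKO-labelled livers, against 56.0, 24.6, 136 and 134 FPKM in WT livers (log2 −2.89 ± 0.46 SE, limma adjusted p = 0.00427). Phyh, the alpha-hydroxylase of phytanic acid (log2 −1.23 ± 0.21 SE, limma adjusted p = 0.00593), Decr2, the peroxisomal dienoyl-CoA reductase (log2 −1.17 ± 0.20 SE, limma adjusted p = 0.00620), and catalase, Cat (log2 −1.39 ± 0.25 SE, limma adjusted p = 0.00662), were lower as well. Of 15 tested peroxisome assembly genes 3 were lower, namely Pex11g (log2 −0.87 ± 0.21 SE, limma adjusted p = 0.0181), Pex6 (log2 −0.75 ± 0.18 SE, limma adjusted p = 0.0182) and Pex16 (log2 −0.62 ± 0.19 SE, limma adjusted p = 0.0406).

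The acyl-CoA thioesterases, which free fatty acids from coenzyme A, ranged from −2.38 to 1.11 on the log2 scale. Of these 6 members 2 were lower and 4 did not pass, beside 5.74% lower among all tested genes. Acot2, Acot1, Acot4 and Acot3 lie in that order on the plus strand of chromosome 12, followed by Acot5 and Acot6, between 83987861 and 84111349 (GRCm38). Acot3, a peroxisomal thioesterase, had 5.195, 4.76, 0.616 and 4.41 FPKM in LKO-labelled livers, against 45.3, 100.4, 3.39 and 10.1 FPKM in WT livers. Both WT females were far above every other liver, and in males the groups overlapped (log2 −2.38 ± 0.59 SE, limma adjusted p = 0.0210). Acot4, which acts on dicarboxylic acyl-CoA such as succinyl-CoA, had 8.23, 4.69, 3.25 and 7.19 FPKM in LKO-labelled livers, against 24.7, 28.5, 9.46 and 13.2 FPKM in WT livers. Its 4 LKO-labelled values were all below WT male 3, the lowest WT liver (log2 −1.49 ± 0.30 SE, limma adjusted p = 0.0101).

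Acot1, the cytosolic member of the cluster, had 67.8, 6.66, 0.956 and 15.0 FPKM in LKO-labelled livers, against 26.1, 26.3, 36.1 and 21.2 FPKM in WT livers. The LKO-labelled livers lay on both sides of the WT range, with male 3 lowest and female 1 highest (log2 −1.30 ± 0.86 SE, limma adjusted p = 0.259). Acot2, its mitochondrial copy, averaged 11.5 ± 11.9 FPKM in LKO-labelled livers and 3.41 ± 1.53 FPKM in WT livers (SD over 4 livers each; log2 1.11 ± 0.48 SE, limma adjusted p = 0.108), and LKO-labelled female 1 was again highest at 28.9 FPKM. Shared 50-base words made up 18.9% of Acot1 and 27.7% of Acot2, mostly with each other (17.6% and 24.5%), so reads may be divided between them. They made up 21.7% of Acot3, with Gm49366 (11.2%) and 4732463B04Rik (7.81%) as the largest partners. In Acot4 they made up 14.4%, mostly with 4732463B04Rik (11.2%), and 2.53% with Acot6. Reads of Acot3 and Acot4 may be divided with these loci. Acot8, a broad peroxisomal thioesterase on another chromosome, averaged 9.99 ± 3.01 FPKM in LKO-labelled livers and 9.47 ± 1.31 FPKM in WT livers (log2 0.03 ± 0.24 SE, limma adjusted p = 0.930; −0.36 under the median-of-ratios scaling).

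The Cyp4a branch held both the largest fall and 1 of the 3 members that were higher. Cyp4a14, Cyp4a10, Cyp4a31 and Cyp4a32 lie side by side on chromosome 4, between 115486200 and 115621602 (GRCm38). Cyp4a10, a fatty acid omega-hydroxylase and a classical PPAR alpha target, had 10.6, 17.8, 22.2 and 16.2 FPKM in LKO-labelled livers, against 230.2, 321, 209.6 and 125 FPKM in WT livers. No LKO-labelled liver exceeded 22.2 FPKM and no WT liver was below 124.7 FPKM, so the mean was 7.54% of WT (log2 −3.62 ± 0.32 SE, limma adjusted p = 0.000698). Cyp4a14, the neighbouring hydroxylase, had 109, 19.8, 46.3 and 76.2 FPKM in LKO-labelled livers, against 491, 319.9, 249.1 and 164 FPKM in WT livers. The groups did not overlap, and the mean was 20.5% of WT (log2 −2.40 ± 0.53 SE, limma adjusted p = 0.0135). Cyp4a10 and Cyp4a14 were called lower under all 18 alternatives.

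Cyp4a32 had 0.168, 5.77, 5.60 and 0.660 FPKM in LKO-labelled livers, against 7.08, 10.3, 48.1 and 12.8 FPKM in WT livers, with 4 fragments behind the value of LKO-labelled female 1. Every LKO-labelled liver was below every WT liver (log2 −2.37 ± 0.69 SE, limma adjusted p = 0.0332), WT male 3 stood far above the other WT livers, and the call held under 10 of 18 alternatives. Cyp4a31 was low throughout, with 3.33, 5.56, 4.20 and 3.38 FPKM in LKO-labelled livers, against 1.39, 1.13, 1.90 and 1.08 FPKM in WT livers. All 4 LKO-labelled livers were above all WT livers (log2 1.10 ± 0.21 SE, limma adjusted p = 0.00891), opposite to its neighbours, and the call was lost under quantile normalization and in males alone. Shared 50-base words made up 30.5% of Cyp4a10, 46.8% of Cyp4a32 and 21.7% of Cyp4a31 but 0.245% of Cyp4a14, so the split among the first 3 is uncertain and that of Cyp4a14 is not affected in this way. At 1.08 to 5.56 FPKM, Cyp4a31 adds little to the branch sum.

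**Figure D4:**
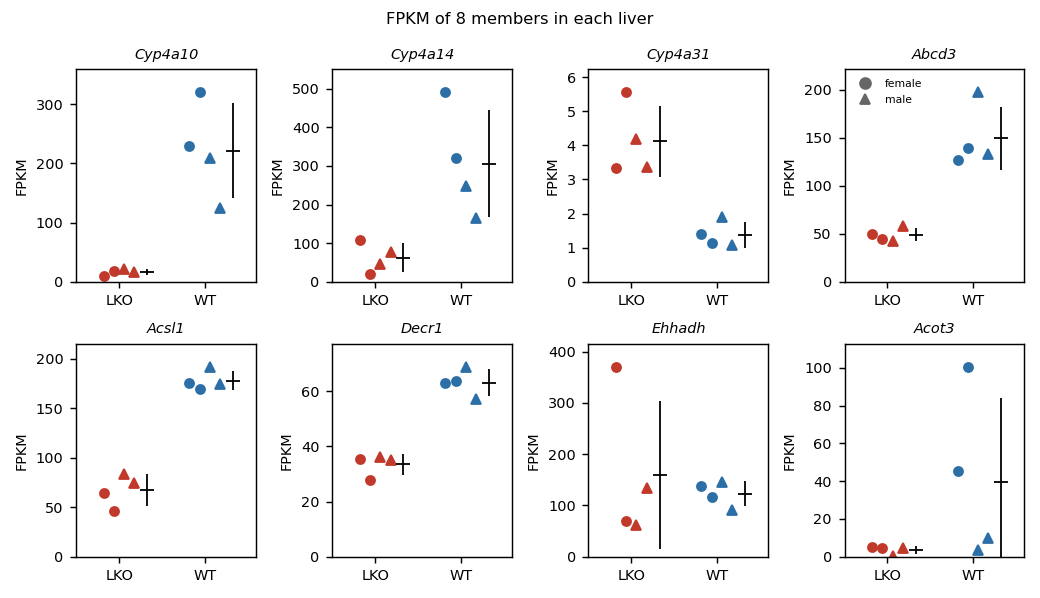
FPKM (y axis, from 0) of 8 members in the 4 LKO-labelled livers (red, left) and the 4 WT livers (blue, right); circles are females, triangles males, and black bars the mean and SD. Cyp4a10, Cyp4a14, Abcd3, Acsl1 and Decr1 did not overlap and were lower, Cyp4a31 did not overlap and was higher, and Ehhadh and Acot3 overlapped.

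Omega-oxidation genes outside the members had 5 of 12 lower and 2 higher, beside 5.74% and 24.7% of all tested genes. Cyp4f14, a hydroxylase of leukotrienes and long-chain fatty acids, fell most, with 3.31, 16.5, 2.44 and 2.77 FPKM in LKO-labelled livers, against 126, 165, 114 and 142 FPKM in WT livers (log2 −4.61 ± 0.43 SE, limma adjusted p = 0.000734). Cyp4f15 (log2 −1.84 ± 0.20 SE, limma adjusted p = 0.00107) and Cyp4v3, a fatty acid hydroxylase (log2 −1.57 ± 0.20 SE, limma adjusted p = 0.00197), were lower too, and Cyp4f16 was higher (log2 1.86 ± 0.26 SE, limma adjusted p = 0.00290).

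The 2 members outside the branches were Vnn1 and Ucp2. Vnn1, a pantetheinase and PPAR alpha target, had 41.5, 40.5, 11.4 and 18.9 FPKM in LKO-labelled livers, against 30.1, 55.1, 21.9 and 18.7 FPKM in WT livers, with overlap in both sexes (log2 −0.21 ± 0.25 SE, limma adjusted p = 0.520). Ucp2, an uncoupling protein of the inner mitochondrial membrane that hepatocytes express little and macrophages much, had 34.9, 48.2, 14.2 and 7.02 FPKM in LKO-labelled livers, against 8.68, 11.5, 5.23 and 5.99 FPKM in WT livers. The LKO-labelled females were highest, and LKO-labelled male 4 lay within the WT range (log2 1.34 ± 0.31 SE, limma adjusted p = 0.0167). The macrophage marker Cd68 had 29.8, 82.2, 10.1 and 18.7 FPKM in LKO-labelled livers, against 8.32, 10.4, 3.11 and 6.62 FPKM in WT livers, and was likewise highest in the LKO-labelled females, but of 10 macrophage markers 2 were higher and 4 were lower, namely Clec4f, Marco, Vsig4 and Timd4, so the list did not move one way. Over all tested genes 5.74% were lower and 24.7% higher. The part of macrophages in Ucp2 and Acsl4 was not tested.

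The sexes were compared with 1 mean per genotype and sex, each contrast of 2 against 2 livers borrowing its spread from all 8. Within females 16 members (35.6%) were lower, against 6.23% of all tested genes, and 3 (6.67%) were higher, against 28.1%. Within males 6 members (13.3%) were lower, against 4.09%, and 1 (2.22%) was higher, against 13.4%. Acsl1, Decr1, Abcd3 and Cyp4a10 were lower in both sexes, Acsl5 and Acaa1b passed in males but not in females, and the member higher in males was Abcd2. These counts moved when single livers were left out, and so did those over all tested genes, but such fits leave 1 liver in a genotype and sex. Within females the median log2 change of the members was −0.48, or −0.92 without LKO-labelled female 1 and −0.24 without LKO-labelled female 2. Over all tested genes these medians were 0.45, 0.39 and 0.49. The difference between the sexes itself passed the test for 2 of 45 members (4.44%), against 7.21% of all tested genes. That count moved too when single livers were left out, among the members and among all tested genes.

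These 2 members had higher values in WT females than in WT males. Abcd2, a peroxisomal half-transporter of very-long-chain acyl-CoA, had 15.3, 13.6, 13.0 and 14.2 FPKM in LKO-labelled livers, against 16.7, 19.8, 2.25 and 4.36 FPKM in WT livers, so WT females held more than WT males while the 4 LKO-labelled livers were alike, between 13.0 and 15.3 FPKM. The genotype effect was −0.32 in females and 1.81 in males, a difference of −2.13 ± 0.38 (SE, limma adjusted p = 0.0251). Acot12, a cytosolic acetyl-CoA thioesterase, had 15.0, 19.6, 34.7 and 33.5 FPKM in LKO-labelled livers, against 45.7, 56.9, 37.7 and 38.4 FPKM in WT livers. Its genotype effect was −1.52 in females and −0.15 in males, a difference of −1.37 ± 0.32 (SE, limma adjusted p = 0.0454). Both calls were lost on leaving out any WT liver or either LKO-labelled male, with adjusted p of 0.0642 to 0.110 for Abcd2 and 0.109 to 0.166 for Acot12. For Acsl5, which passed in males and not in females, the difference did not pass (1.37 ± 0.43 SE, limma adjusted p = 0.0981). Nor did it for Etfdh, which passed in females and not in males (−1.10 ± 0.38 SE, limma adjusted p = 0.116).

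**Figure D5:**
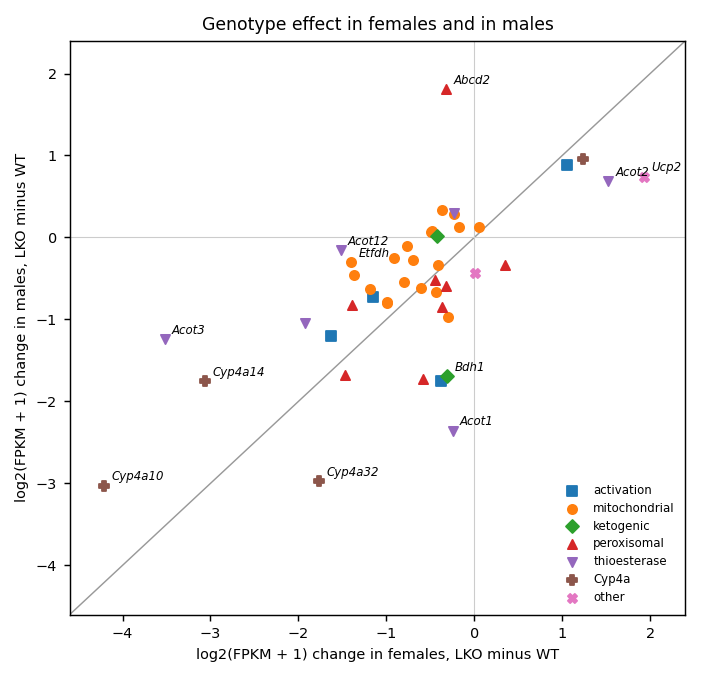
Log2(FPKM + 1) change, LKO minus WT, in females (x axis) and in males (y axis) for the 45 members, with the branch shown by marker; the grey diagonal marks equal change. Abcd2 lies far above the diagonal, at −0.32 in females and 1.81 in males, and Cyp4a10 lies low in both, at −4.21 and −3.03.

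The LKO-labelled females were less alike than the other same-sex pairs by their correlation. Across tested genes the Pearson correlation of log2(FPKM + 1), a description over genes that are not independent, was 0.8815 between them, 0.9705 between the LKO-labelled males, and 0.9789 and 0.9797 within the WT pairs. Female 1 was above female 2 for 36 of 45 members more than 2-fold above for 13 and more than 2-fold below for 1, with a median ratio of 1.42. LKO-labelled male 3 was more than 2-fold above male 4 for 2 members and more than 2-fold below for 5, with a median ratio of 0.897, and WT female 1 was more than 2-fold above WT female 2 for 0 members and more than 2-fold below for 1. The WT males were not counted in this way. WT males 3 and 4 had 227 and 100.1 FPKM of Crot, 48.1 and 12.8 FPKM of Cyp4a32, and 3.39 and 10.1 FPKM of Acot3. Between the LKO-labelled females the gap reached 10.2-fold for Acot1, 5.50-fold for Cyp4a14, 5.24-fold for Ehhadh and 3.31-fold for Bdh1, and was 1.11-fold for Abcd3 and 1.39-fold for Acsl1. Female 1 is also 1 of the 2 libraries low in Gm42418. Without those 2 libraries 14 members were lower, 9 of them among the 17, and the median log2 change over all 45 members was −0.83. Neutrophil markers summed to 354.7 FPKM in female 1 and 52.8 FPKM in female 2, and Spp1 had 291 FPKM in female 1 and 3145 FPKM in female 2. The part of either in the gap was not tested.

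Regulators of the pathway were read from a list of 20 genes. Of these 6 were lower and 3 higher, beside 5.74% and 24.7% of all tested genes. Ppara, which encodes PPAR alpha, had 43.9, 24.7, 17.9 and 19.6 FPKM in LKO-labelled livers, against 39.0, 53.2, 37.1 and 39.6 FPKM in WT livers (log2 −0.73 ± 0.23 SE, limma adjusted p = 0.0460). Only LKO-labelled female 1 lay within the WT range, and Ppara passed in neither sex alone (limma adjusted p = 0.272 in females and 0.0601 in males). Rxra, its partner receptor, was lower (log2 −0.91 ± 0.18 SE, limma adjusted p = 0.00905), as were the fasting-related factors Klf15 (log2 −1.09 ± 0.18 SE, limma adjusted p = 0.00467) and Creb3l3 (log2 −0.81 ± 0.17 SE, limma adjusted p = 0.0104). Pparg, the adipogenic receptor of the same family, was higher (log2 1.19 ± 0.22 SE, limma adjusted p = 0.00742). Rxrb, another retinoid X receptor gene (log2 0.59 ± 0.18 SE, limma adjusted p = 0.0387), and Esrra (log2 0.86 ± 0.25 SE, limma adjusted p = 0.0332) were higher too.

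Of 10 hepatocyte markers 4 were lower and 6 did not pass, beside 5.74% lower and 24.7% higher among all tested genes. The lower ones were Serpina1c at 18.2% of WT, Tat at 34.1%, Fah at 49.2% and Hnf4a at 57.6%. In each of them all 4 LKO-labelled livers lay below all 4 WT livers. The same held for Alb and Pck1, though they did not pass. The summed level of the 10 was 21310 to 28530 FPKM in LKO-labelled livers, against 42400 to 45670 FPKM in WT livers, but most of it was albumin, Alb, which did not pass by itself (log2 −0.95 ± 0.35 SE, limma adjusted p = 0.0715). Cps1 and Ass1, which did not pass, differed between the sexes. Among LKO-labelled livers Cps1 was at 24.1% of WT in females and 167% in males, and Ass1 at 13.7% in females and 97.6% in males. Macrophage markers summed to 46.3 to 373 FPKM in LKO-labelled livers and 87.0 to 209 FPKM in WT livers, with 4 of 10 lower and 2 higher. Neutrophil markers summed to 8.63 to 355 FPKM in LKO-labelled livers and 0.941 to 3.94 FPKM in WT livers (2 of 3 tested higher), and lymphocyte markers to 1.64 to 30.6 FPKM in LKO-labelled and 1.51 to 7.57 FPKM in WT livers. Stellate markers summed to 19.9 to 574 FPKM in LKO-labelled livers and 35.8 to 66.3 FPKM in WT livers (2 of 8 higher, 2 lower), endothelial markers to 46.6 to 178 FPKM in LKO-labelled and 61.9 to 103 FPKM in WT livers (1 of 7 higher, 1 lower), and bile duct markers to 7.46 to 3158 FPKM in LKO-labelled and 19.97 to 22.1 FPKM in WT livers. Most of the bile duct sum was Spp1, at 5.55 to 3145 FPKM in LKO-labelled and 17.5 to 20.03 FPKM in WT livers, while Krt19 was at 0 to 0.227 FPKM in LKO-labelled and 0.211 to 0.714 FPKM in WT livers. All 6 markers of dividing cells were higher, summing to 10.5 to 35.3 FPKM in LKO-labelled livers and 0.637 to 2.81 FPKM in WT livers. Of the adipocyte markers only Fabp4 was at a tested level and it was higher (log2 4.08 ± 0.42 SE, limma adjusted p = 0.000934), while Plin1, Lep and Ucp1 were listed at 0 in all 8 livers. The part of these cell types in the oxidation genes was not tested.

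How far single calls held was counted over 18 alternatives. Acsl1, Cpt2, Decr1, Abcd3, Cyp4a10 and Cyp4a14 passed in all 18, Slc27a2 in 17, Acot4, Acsl4 and Cyp4a31 in 16, Acadvl in 14, Acad11 and Acaa1b in 13, Ucp2 in 12, Crot, Acot3 and Cyp4a32 in 10, Acsl5 in 9, Etfdh in 8 and Eci2 in 7. Among the single livers, leaving out WT female 1 ended 8 of the 17 lower calls, WT female 2 ended 7, and WT male 3 and LKO-labelled male 4 ended 6 each. LKO-labelled female 1 ended 5, LKO-labelled male 3 and WT male 4 ended 4 each, and LKO-labelled female 2 ended that of Etfdh. The adjusted p of the calls lost in this way ran from 0.0505 to 0.135. Of the 3 higher calls, that of Ucp2 was lost without WT female 2, at an adjusted p of 0.0537.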

How the data were processed

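Liver RNA of 8 samples, 4 labelled Triple LKO and 4 WT, was read from 1 deposited table of FPKM values made by the authors. The submitters' processing notes name the mm10 genome, STAR 2.6.1, fastp, DESeq2 and HTSeq. What each did, the strand setting and the annotation were not given in the sources used here. FPKM divides by the library total, so a library whose most abundant genes take less shows higher values elsewhere. The deposited FPKM values were whole multiples of 1 fragment for 100% of values to within 0.001 fragment, which gave depths of 15.1 to 18.8 M; the recovered fragments were used only in an alternative, since the values are not counts. Symbols and positions came from GENCODE M21 (GRCm38), with 785 of 35275 identifiers unmatched, and promoter windows from RefSeq (GRCm38.p6).

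Genotypes were compared by limma-trend (R 4.3.3, limma 3.58.1) on log2(FPKM + 1) over the 13573 genes averaging at least 0.5 FPKM, with Benjamini-Hochberg adjustment over all of them and a threshold of 0.05. The genotype effect had sex as a term, and within-sex effects and the interaction came from a model with 1 mean per genotype and sex. The procedure was tested on simulated data with balanced changes, 1 fixed spread and no sex effect. That test does not cover the uneven changes and unlike livers seen here. Values are given per liver for every member that passed and for the 2 highest members of each branch by mean FPKM. Of other pathway lists up to 4 genes with the smallest p are given. Ppara, Rxrb, Esrra, Cyp4a12a and the cell type markers named were added after their values were seen. Some genes of these lists are counted but not reported here by name. The members, lists and alternatives were chosen with earlier results of these data known, so counts over them are descriptions. Replicate numbers follow sample order and pair nothing. Alternatives were another pseudocount (0.1), no filter or a filter of 1 FPKM, median-of-ratios scaling, totals without the 50 most abundant genes, quantile normalization, limma-voom, no sex term, males alone, leaving out the libraries low in Gm42418, and leaving out each liver.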

Additional observations from a re-analysis of the deposited data

Results flagged for a closer look

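A single liver stood apart from the other 3 of its group in 4 of 90 groups examined (Dixon's gap ratio, 95% level), about as many as the 1 in 20 that chance flags. Decr1 was lowest in LKO-labelled female 2, at 27.7 FPKM. In WT male 3, Acadvl at 83.1 FPKM, Abcd3 at 197 FPKM and Cyp4a32 at 48.1 FPKM were the highest of the WT livers. The genotype effect differed between the sexes for Abcd2, by −2.13 on the log2 scale in females minus males, and for Acot12, by −1.37. Both differences were tested as an interaction in limma, and both were lost under limma-voom, with adjusted p of 0.0556 and 0.0834. That of Acot12 was also lost with the pseudocount of 0.1, without a filter on low values and without the libraries low in Gm42418, at adjusted p of 0.0541 to 0.0825.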

How the results depend on the processing

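Against 17 members lower and 3 higher, 11 were lower without a filter on low values, 28 under median-of-ratios scaling and 11 in males alone, and 1 was higher under median-of-ratios scaling and 0 under quantile normalization, where 3 were higher at an unadjusted limma p under 0.05; limma-voom gave 18 lower and 3 higher. Leaving out 1 liver gave 9 to 19 lower and 2 to 4 higher, beside 453 to 799 lower and 1504 to 3255 higher over all tested genes. All 17 lower calls were kept under median-of-ratios scaling, with the pseudocount of 0.1, the filter of 1 FPKM, totals without the 50 most abundant genes and limma-voom; 14 were kept under quantile normalization, 13 without a sex term, 11 without a filter, 9 without the libraries low in Gm42418 and 8 in males alone. The log2 change of these 20 members kept its sign under every alternative. The cause of the lost calls was not tested, except that fewer livers or more genes enter where livers are left out or the filter is dropped.

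Within females, leaving out 1 liver gave 3 to 25 lower and 1 to 5 higher, and both median-of-ratios scaling and quantile normalization gave 1 higher. Within males, median-of-ratios scaling gave 13 lower and the pseudocount of 0.1 gave 2 higher. The interaction passed for 1 member with the pseudocount of 0.1, 1 without a filter and 1 without the libraries low in Gm42418, for 0 under limma-voom (6 at an unadjusted p under 0.05), and for 0 to 7 on leaving out 1 liver.

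Signs turned only in members that did not pass. In males alone the log2 change was 0.081 for Cpt1a, 0.13 for Acadm, 0.064 for Echs1, 0.33 for Eci1, 0.023 for Acat1 and −0.34 for Ehhadh. Under median-of-ratios scaling it was −0.34 for Acads, −0.39 for Hadhb, −0.43 for Ehhadh and −0.36 for Acot8. With totals without the 50 most abundant genes these 4 were at −0.021, −0.076, −0.10 and −0.069, and without the libraries low in Gm42418 at −0.34, −0.23, −0.75 and −0.19. Quantile normalization gave 0.0097 for Acadm, −0.17 for Hadhb and −0.43 for Acot8. Leaving out 1 liver gave −0.13 to 0.11 for Acadm, −0.20 to 0.39 for Acads, −0.10 to 0.27 for Hadhb, −0.19 to 0.28 for Eci1, −0.45 to 0.14 for Acat1, −0.54 to 0.41 for Ehhadh and −0.11 to 0.25 for Acot8.

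No paired analysis was possible because the labels give no replicate number, and sample order names livers without pairing them. Depth limits Cyp4a32 most, with 4 fragments in its lowest liver.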

Other observations

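PPAR alpha targets that lie outside oxidation were called in both directions. Of 19 tested, 3 were lower, against 5.74% of all tested genes, and 5 were higher, against 24.7%, with a median log2 change of 0.15 beside 0.39 over all tested genes. No difference from the oxidation genes was tested. Fabp1, the liver fatty acid binding protein, had 809.7, 1012, 292 and 419.5 FPKM in LKO-labelled livers, against 3076, 2657, 5020.2 and 3552 FPKM in WT livers (log2 −2.62 ± 0.42 SE, limma adjusted p = 0.00435), with no overlap. Fgf21, a secreted hormone of the fasted or stressed liver, had 787, 263, 116 and 38.5 FPKM in LKO-labelled livers, against 0.453, 0.759, 1.19 and 1.07 FPKM in WT livers (log2 6.57 ± 0.68 SE, limma adjusted p = 0.000934), and every LKO-labelled liver was above every WT liver. Lpl, the lipase that frees fatty acids from lipoproteins (log2 5.12 ± 0.32 SE, limma adjusted p = 0.000169), and Hilpda, an inhibitor of triglyceride breakdown (log2 2.598 ± 0.45 SE, limma adjusted p = 0.00608), were higher too.

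Of 19 tested general mitochondrial genes, of biogenesis and the respiratory chain, 1 was lower, near the 5.74% of all tested genes, and 2 were higher, against 24.7%. Their median log2 change was 0.19, beside 0.39 over all tested genes. Tomm20 (log2 1.75 ± 0.31 SE, limma adjusted p = 0.00648) and Tomm40 (log2 1.32 ± 0.23 SE, limma adjusted p = 0.00648), subunits of the protein import gate, were higher, and Sdha, the flavoprotein of complex II, was lower (log2 −0.90 ± 0.22 SE, limma adjusted p = 0.0186). Cyp4a12a, an omega-hydroxylase that male mice express more than females, had 34.4, 0.689, 0.637 and 0.880 FPKM in LKO-labelled livers, against 0.0746, 0.0243, 99.4 and 66.4 FPKM in WT livers. Its genotype effect was 2.88 in females and −5.55 in males, and the difference between the sexes passed in limma (8.43 ± 1.63 SE, adjusted p = 0.0296). The female side rests on LKO-labelled female 1.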
